A study of Mus musculus with 9 samples.

Results

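The comparison described here is the passage from 1 h to 6 h after a heat shock in mouse testicular peritubular myoid cells, the contractile cells that wrap the seminiferous tubules. It rests on 6 of the 9 RNA-seq libraries of the study, 3 taken at 1 h and 3 at 6 h. Genes were included when they reached at least 1 FPKM (fragments scaled to transcript length and library size) in at least 3 of those 6 libraries. That left 11199 genes tested, out of 17559 with values and 20717 listed in the deposited table.

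The cells were primary cultures from C57BL/6J mice, kept in DMEM/F12 medium with 10% fetal bovine serum at 37 °C and 5% CO2. Dishes in both heated groups were immersed for 30 min in a sterile bath at 42 °C and went back to the incubator, where they stayed for 1 h or 6 h before collection. The 3 unheated control libraries of the study enter no test between 6 h and 1 h, except where an alternative adds them to the fit, and are given as a reference level. Control replicate 3 stood apart, with Sertoli cell markers summing to 3248 FPKM (Clu at 2700 FPKM) beside 451 and 356 FPKM in the other controls, and red blood cell markers to 7.17 FPKM beside 0.14 and 0.08 FPKM. Control ranges include it unless stated. Replicates are numbered in the labels, but no label says that they are separate animals or cultures, so the p-values reflect only how much these libraries vary, and that variation may be technical.

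Heat unfolds proteins, and the unfolded proteins draw chaperones away from HSF1, the transcription factor that then switches on the genes of the HSP70, HSP40, HSP90 and small heat shock protein families. Chaperones refold proteins, and once they have accumulated they bind HSF1 again, which closes the loop. Heat also activates MAP kinases, which induce the immediate early genes (the AP-1, EGR and NR4A transcription factors), and it can activate the integrated stress response through ATF4 and ATF3. The transcripts of many of these genes are short-lived, so their levels can drop within hours once transcription slows. The testis is kept below body temperature in mice, and its cells are known for their sensitivity to heat.

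Depth was even, at an estimated 19050000 to 19920000 reads per library in all 9. The labelled cell type was checked on 11 markers of myoid cells, all of which passed the filter. Their summed level was 4902 to 5117 FPKM at 1 h and 4193 to 6194 FPKM at 6 h, with Acta2 (smooth muscle actin) at 992 to 1536 FPKM and Tagln at 1602 to 2231 FPKM over the 6 libraries, while Myh11, the smooth muscle myosin heavy chain, was at 8.41 to 41.9 FPKM. Markers of other testicular cells were present, and for each type the summed levels at 1 h and at 6 h overlapped. Macrophage markers (11 of 13 tested) summed to 64.5 to 337 FPKM at 1 h and 50.8 to 344 FPKM at 6 h, Leydig cell markers (6 of 11) to 1103 to 2321 and 1691 to 2354 FPKM, Sertoli cell markers (10 of 14) to 316 to 647 and 463 to 646 FPKM, and fibroblast markers (10 of 10) to 2315 to 2984 and 1223 to 3837 FPKM. Endothelial markers reached at most 74.7 FPKM in sum and germ cell markers 25.8 FPKM, and red blood cell markers reached at most 0.36 FPKM over the 6 libraries. Among the Leydig cell markers Insl3 was at 327 to 1137 FPKM, Cyp11a1 at 288 to 820 FPKM and Star at 81.9 to 136 FPKM, while Cyp17a1 reached at most 0.11 FPKM. Among the Sertoli cell markers Clu was at 175 to 437 FPKM and Gata4 at 50.2 to 83.4 FPKM, while Fshr reached at most 0.02 FPKM. In bulk RNA, fewer cells of a type and less RNA per cell cannot be told apart.

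Between 1 h and 6 h, 22 genes fell, which is 0.196% of the genes tested, and none rose, which is 0% (limma on log2(FPKM + 1), two-sided, Benjamini-Hochberg adjusted p below 0.05 over all genes tested). They were inducible chaperones and their partners (Hspa1a, Hspa1b, Dnajb1, Dnajb4, Dnaja1, Bag3), stress and immediate early transcription factors (Atf3, Jun, Egr4, Nfil3), GADD45 proteins, and a few signalling genes. The log2 differences ran from -5.27 for Hspa1a (38.8-fold in mean FPKM) to -1.36 for Swt1, and the ratio of mean FPKM was highest for Egr4, at 43.7-fold. Before adjustment, 382 genes (3.41%) had a p below 0.05 and a lower level at 6 h and 1029 (9.19%) a higher one, beside 559.95 expected by chance in all. The 6 h libraries spread more widely than the 1 h libraries, with a median SD of 0.28 against 0.15 log2 units, and single libraries moved the number of calls. Without 1 h replicates 1, 2 or 3 there were 7, 6 and 7 lower genes, the omission of 6 h replicate 3 left 6, and that of 6 h replicate 1 gave 66 lower and 34 higher.

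**Figure D1:**
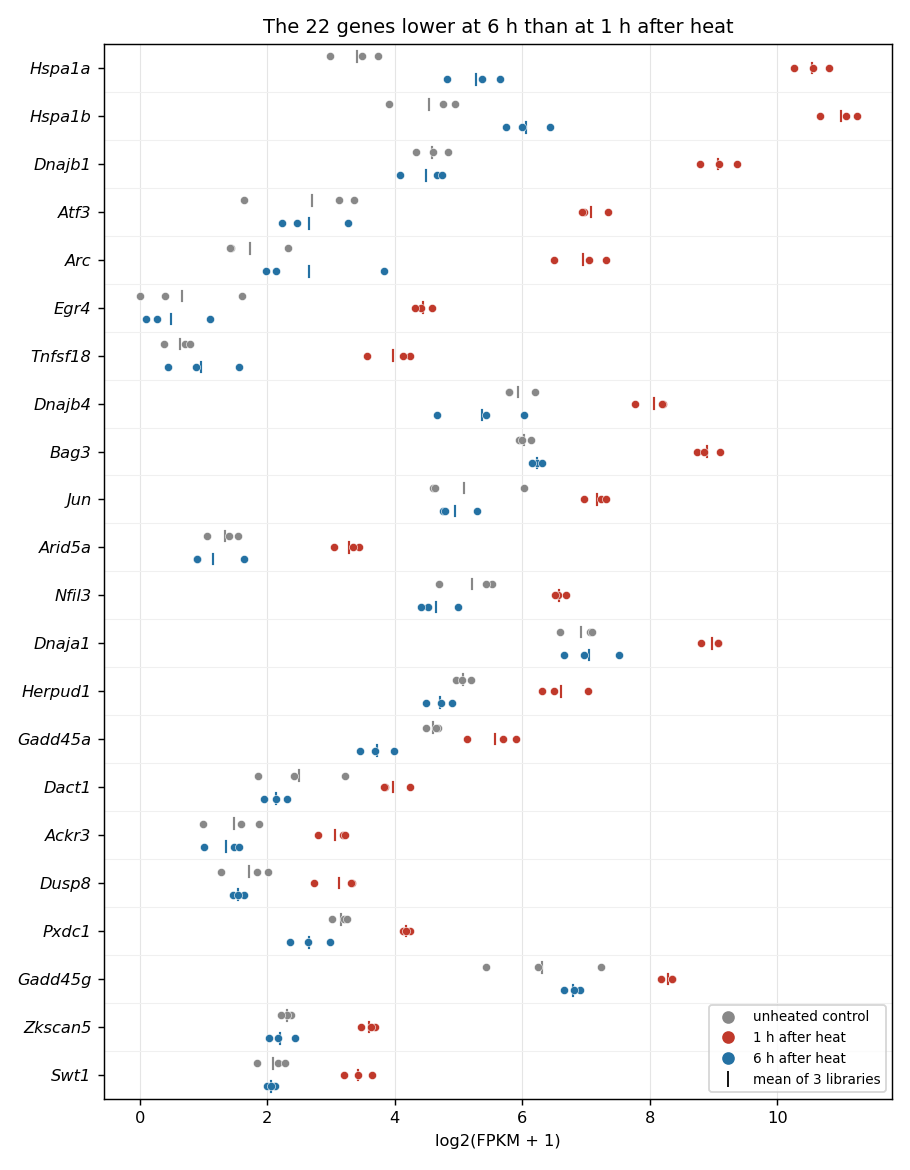
Level of the 22 genes that fell between 1 h and 6 h, ordered by the size of the fall, with log2(FPKM + 1) on the x axis. Each dot is 1 library and each vertical bar the mean of 3 libraries, for unheated control (grey), 1 h (red) and 6 h (blue). In every row the 3 red dots lie to the right of the 3 blue ones, and most blue dots lie closer to the grey ones than to the red ones.

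The inducible HSP70 genes led the falls. Hspa1a (NCBI gene 193740, chromosome 17, 34969359 to 34972156, minus strand) encodes the major stress-inducible HSP70, which binds unfolded stretches of protein and releases them with ATP. It was measured at 1228, 1794 and 1513 FPKM in the 3 libraries at 1 h and at 49.3, 27.1 and 40.4 FPKM at 6 h. Every 6 h library lay more than an order of magnitude below every 1 h library, and all 3 lay above the controls, which were at 10.2, 12.3 and 6.92 FPKM. On the log2 scale it fell by 5.27 (SE 0.25, limma adjusted p 0.000534). Hspa1b (chromosome 17, 34956429 to 34959238, minus strand) is its near-identical neighbour, and how the reads were shared out between these copies is not known. It went from 1635, 2426 and 2159 FPKM to 85.5, 52.6 and 62.9 FPKM, a log2 difference of -4.94, and it too was above all 3 controls at 6 h.

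The HSP40 genes encode co-chaperones that deliver clients to HSP70 and start its ATP cycle. Dnajb1 was at 439, 658 and 540 FPKM at 1 h and at 24.2, 16.0 and 25.6 FPKM at 6 h, with controls at 27.4, 23.1 and 19.2 FPKM. Its fall of 24.9-fold (log2 difference -4.58, limma adjusted p 0.000534) left 2 of the 3 libraries within the range of the controls and 1 below it, whereas its partners Hspa1a and Hspa1b lay above. Dnajb4 went from 217, 295 and 292 FPKM to 64.2, 24.2 and 42.1 FPKM, a log2 difference of -2.69. Dnaja1, a farnesylated member of the family, went from 444, 539 and 538 FPKM to 182, 100.2 and 124 FPKM, a log2 difference of -1.93. These 3 were the calls among the 12 HSP40 genes tested, 25% of them, and the median log2 difference of the 12 was -0.05, beside 0.09 over all genes tested.

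Bag3 (chromosome 7, 128523583 to 128547179, plus strand) is an exchange factor that links HSP70 to small heat shock proteins and to autophagy, and it is known for its role in muscle cells. It was measured at 425, 549 and 462 FPKM at 1 h and at 74.2, 70.2 and 78.2 FPKM at 6 h. The 6 h libraries lay close together and all above the controls (60.6, 62.5 and 69.5 FPKM). Its log2 difference was -2.67 with a limma adjusted p of 0.000971. It was the one call among the 7 BAG proteins and exchange factors. Hspbp1, another HSP70 exchange factor, stood at 11.04 to 11.6 FPKM at 1 h and 14.5 to 15.9 FPKM at 6 h, without overlap and without a call (adjusted p 0.316).

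The promoters of these chaperone genes are shown because the heat shock element, to which HSF1 binds, is the sequence feature the family is known for. In RefSeq promoters on GRCm38.p6 (250 bases before to 50 after the start), which were matched for 8988 of the 11199 genes and 20 of the 22, the triplets GAA, TTC and GAA, with 2 free bases between neighbours, were searched on both strands with at most 1 mismatch in the 9 fixed letters, overlapping matches included. They were found in 3 of the 20 (15%) and in 5.196% of all matched promoters. The exact letters were found in none of the 20 and in 0.445% of all. The windows below run 5′ to 3′ on the strand of the gene, with the matching stretch in capitals. Hspa1a is from chr17:34972223-34972300 (minus strand) and Dnaja1 from chr4:40722309-40722381 (plus strand), and the window of Hspa1b at chr17:34959305-34959382 (minus strand) has the same letters as that of Hspa1a.
Hspa1a: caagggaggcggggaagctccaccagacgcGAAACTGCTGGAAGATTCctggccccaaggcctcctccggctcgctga
Dnaja1: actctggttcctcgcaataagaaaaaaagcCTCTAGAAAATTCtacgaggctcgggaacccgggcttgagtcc
In Hspa1a and Hspa1b the capitals cover 2 overlapping matches, and in Dnaja1 they cover 1. A match describes the letters and is not evidence of binding in these cells.

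Other chaperones that stood high at 1 h did not pass the test, and in most of them the 6 h libraries differed widely among themselves. The 5 chaperone lists used here (HSP70, HSP40, HSP90, small heat shock proteins and BAG) held 48 tested genes. Of these, 11 had a 1 h mean at least 2 times the control mean (12 without control replicate 3). Among the 11, 6 are the genes above. The other 5 were Hsph1, Dnaja4, Hspa8, Hsp90aa1 and Hspb1. Hsph1, the HSP110 exchange factor of HSP70, was at 302, 447 and 361 FPKM at 1 h and at 289, 15.9 and 110 FPKM in 6 h replicates 1, 2 and 3. Replicate 1 was thus close to the lowest 1 h library, and replicate 2 was below all 3 controls, which were at 18.6 to 23.1 FPKM. The log2 difference was -2.17 (SE 0.91, adjusted p 0.391).

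Hspb1, the small heat shock protein HSP27, which holds unfolded proteins and protects actin filaments, also ranged widely. It was at 1047, 1678 and 1629 FPKM at 1 h and at 2484, 202 and 804 FPKM at 6 h, so replicate 1 exceeded every 1 h library. Hsp90aa1, the inducible HSP90, was at 1165, 1569 and 1242 FPKM at 1 h and at 1307, 264 and 703 FPKM at 6 h. Dnaja4 was at 99.4, 151 and 79.2 FPKM at 1 h and at 122, 4.85 and 35.9 FPKM at 6 h. In these 3 genes the order of the 6 h libraries was the same, replicate 1 above 3 above 2, and the groups overlapped. The log2 differences were -0.94, -1.07 and -1.84, with limma adjusted p of 0.656, 0.459 and 0.480.

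Hspa8, the constitutive HSP70, showed no such order. It was at 2880, 3722 and 3358 FPKM at 1 h and at 1076, 1767 and 1294 FPKM at 6 h, with replicate 2 the highest, and the groups did not overlap. Its log2 difference was -1.29 with an adjusted p of 0.149, and it passed with quantile normalization (adjusted p 0.0217). Over all 48 genes of these chaperone lists, the order of replicate 1 above 3 above 2 held in 25 (52.1%). It held in 8 of the 11 that stood high at 1 h, beside 30.5% of all genes tested. Members of one list share the libraries and are not independent of each other.

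**Figure D2:**
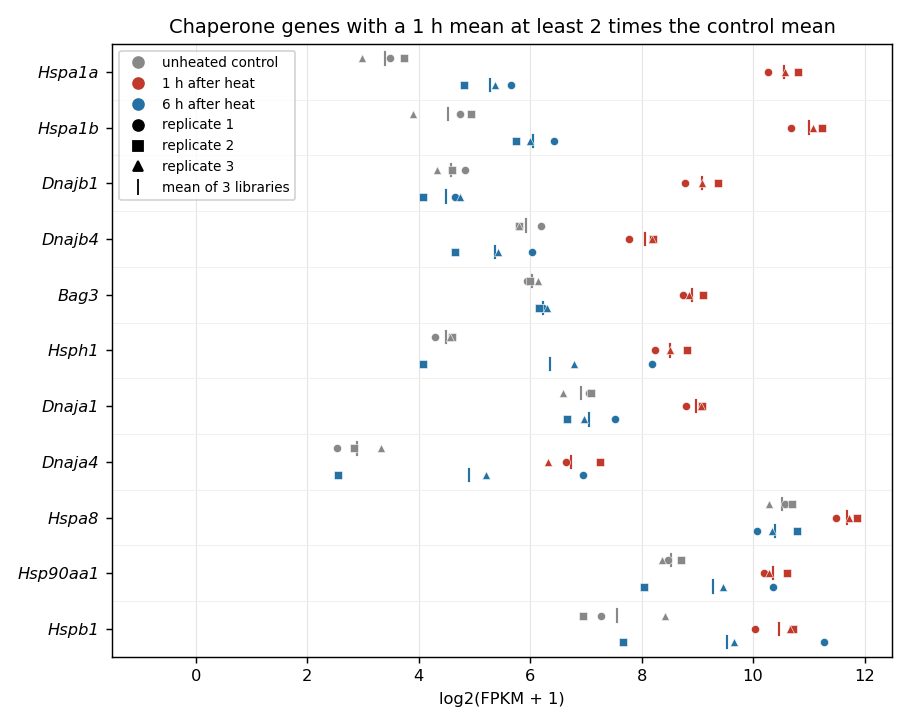
The 11 chaperone genes named above, each with a 1 h mean at least 2 times the control mean. The x axis gives log2(FPKM + 1). Circles, squares and triangles stand for replicates 1, 2 and 3, and vertical bars for means. Grey, red and blue stand for control, 1 h and 6 h. In Hsph1, Dnaja4, Hsp90aa1 and Hspb1 the blue square (6 h replicate 2) lies near the grey control points while the blue circle (6 h replicate 1) lies near or beyond the red 1 h points.

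Other chaperone lists differed in direction. Among 20 chaperones and degradation factors of the endoplasmic reticulum 1 was called, and in 10 all 6 h libraries lay below all 1 h libraries (50%, beside 5.03% of all genes tested), and in none above. Herpud1, which brings misfolded proteins to the degradation complex of the endoplasmic reticulum, was the call. It went from 78.5, 89.5 and 129 FPKM to 21.5, 28.8 and 25.6 FPKM, below all 3 controls (30.1 to 35.5 FPKM), a log2 difference of -1.90 with an adjusted p of 0.0355. Hspa5, the HSP70 of this compartment, was at 926, 1150 and 1285 FPKM at 1 h and at 528, 494 and 474 FPKM at 6 h, without overlap (log2 difference -1.15, adjusted p 0.103). Dnajb9, a co-chaperone of Hspa5, was at 47.4 to 76.6 FPKM at 1 h and at 18.8 to 35.3 FPKM at 6 h (adjusted p 0.235). The list of the cytosolic chaperonin CCT and of mitochondrial chaperones held 15 genes, with 0 called. Without overlap, none lay below and 5 lay above (33.3%, beside 15.4% of all genes tested). After median-of-ratios scaling 1 of the 5 was left, so this count depended on the scaling. The most abundant members, Hspd1 and Hspe1, had lower means at 6 h, with overlap. Hspd1 was at 432, 569 and 459 FPKM at 1 h and at 524, 119 and 315 FPKM at 6 h (log2 difference -0.84). Hspe1 was at 459, 706 and 574 FPKM at 1 h and at 716, 284 and 428 FPKM at 6 h (log2 difference -0.36).

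Stress transcription factors of the integrated stress response formed the next group. Atf3, a repressor and activator of the CREB family that many stresses induce, was measured at 124, 162 and 121 FPKM at 1 h and at 8.65, 3.69 and 4.5 FPKM at 6 h. The 6 h values lay within the range of the controls (9.31, 7.70 and 2.10 FPKM), though 2 were below controls 1 and 2, and their mean was 24.1-fold below the 1 h mean. On the log2 scale it fell by 4.43 (SE 0.28, limma adjusted p 0.00169). Of the 21 genes on this list 1 was called and 7 lay lower without overlap (33.3%, beside 5.03% of all genes tested), with none higher. Chac1, which degrades glutathione, was at 73.6, 108 and 105 FPKM at 1 h and at 24.1, 7.21 and 10.2 FPKM at 6 h, just outside the threshold (log2 difference -2.85, adjusted p 0.0644). Ppp1r15a (GADD34) is the regulatory subunit of a phosphatase of eIF2α, which returns translation to normal. It was at 87.7 to 93.8 FPKM at 1 h and 35.05 to 57.05 FPKM at 6 h (adjusted p 0.147). Ddit3 (CHOP), a transcription factor of the same response, was at 57.2, 61.1 and 59.5 FPKM at 1 h and at 47.3, 38.7 and 50 FPKM at 6 h, without overlap (log2 difference -0.39, adjusted p 0.358). Atf4, whose product is controlled mainly through translation, had overlapping values of 191 to 219 FPKM at 1 h and 175 to 227 FPKM at 6 h.

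The binding site of ATF4 is shown for the called genes because it was shared by members of separate lists. The letters TGATGNAA, a core of the CARE element, were found on either strand in 5 of the 20 promoters (25%), those of Atf3, Gadd45g, Herpud1, Arid5a and Tnfsf18, and in 2.036% of all matched promoters. The motif was searched in genes already known to have fallen, so the count describes them and tests nothing. In 3 of the 5 the letters on the strand of the gene were TTGCATCA, the reverse complement of a match. The windows are chr1:191183406-191183473 (minus strand) for Atf3, chr13:51846544-51846611 (plus strand) for Gadd45g and chr8:94386287-94386354 (plus strand) for Herpud1, with the match in capitals.
Atf3: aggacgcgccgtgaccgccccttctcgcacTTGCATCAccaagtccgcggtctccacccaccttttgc
Gadd45g: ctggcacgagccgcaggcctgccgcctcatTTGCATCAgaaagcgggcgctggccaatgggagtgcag
Herpud1: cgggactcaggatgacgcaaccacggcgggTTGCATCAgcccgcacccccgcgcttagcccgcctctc
Outside the capitals the windows differ.

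Immediate early genes had the lowest median of all 47 lists. Of 13 tested genes of the EGR, NR4A, ARC and IER list, 2 were called and the median log2 difference was -2.08. In 10 the 6 h libraries lay lower without overlap (76.9%, beside 5.03% of all genes tested), with none higher. Egr4, a zinc-finger transcription factor, was at 22.8, 20.3 and 18.9 FPKM at 1 h and at 1.15, 0.07 and 0.20 FPKM at 6 h. It thus returned close to 0, where 2 of the controls also lay (2.02, 0.32 and 0 FPKM), with a log2 difference of -3.95 and a limma adjusted p of 0.00268. Arc, best known from neurons as an activity-regulated gene, was at 89.7, 158 and 132 FPKM at 1 h and at 13.2, 2.92 and 3.41 FPKM at 6 h, a log2 difference of -4.31 (SE 0.49, adjusted p 0.0355). Its replicate 1 at 6 h stood above the controls (1.67 to 4.0 FPKM), and the other replicates at 6 h lay within their range.

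In the uncalled members, too, replicate 1 was the highest of the 6 h libraries. Nr4a1, a nuclear receptor, was at 337, 352 and 536 FPKM at 1 h and at 204, 22.7 and 28.3 FPKM at 6 h (log2 difference -2.94, adjusted p 0.256). Egr2 was at 61.4 to 107 FPKM at 1 h and at 49.2, 13.0 and 10.4 FPKM at 6 h (adjusted p 0.260). Ier2, a nuclear protein of the immediate early response, was at 244 to 309 FPKM at 1 h and 67.0 to 120 FPKM at 6 h (log2 difference -1.53, adjusted p 0.0871). In all 13 genes of this list the highest of the 6 h libraries was replicate 1, beside 36.0% of all genes tested.

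AP-1 is a dimer of FOS and JUN proteins. Jun was at 124, 150 and 158 FPKM at 1 h and at 37.9, 26.1 and 26.7 FPKM at 6 h, within the range of the controls at 64.4, 23.2 and 23.8 FPKM. It fell by 2.23 on the log2 scale (SE 0.19, limma adjusted p 0.00875) and was the one call among 10 AP-1 genes. Of the 10, 7 (70%) lay lower without overlap and none higher, beside 5.03% and 15.4% of all genes tested. Its partner Fos was at 209, 211 and 172 FPKM at 1 h and at 89.4, 47.5 and 22.6 FPKM at 6 h (log2 difference -2.07, adjusted p 0.187). Fosb was at 73.1, 103 and 206 FPKM at 1 h and at 27.1, 1.31 and 7.69 FPKM at 6 h (log2 difference -3.82, adjusted p 0.207). Both were without overlap, and both differed several-fold between the 6 h libraries. Jund, the AP-1 member known to be expressed without stimulation, had overlapping values of 54.3 to 75 FPKM at 1 h and 55.1 to 68.6 FPKM at 6 h.

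Of 12 KLF zinc-finger factors none was called (before adjustment 7 had a p below 0.05 and a lower level, 1 a higher one), while 8 lay lower and 2 higher without overlap. These are 66.7% and 16.7%, beside 5.03% and 15.4% of all genes tested, so the upward share was near that of all genes. Klf6 was at 294, 400 and 256 FPKM at 1 h and at 77.6, 29.8 and 63.2 FPKM at 6 h, with a log2 difference of -2.54 and an adjusted p of 0.0644. It passed under 4 of 15 alternatives, with an adjusted p between 0.0161 and 0.354 over all of them. Klf4 was at 61.8 to 76.1 FPKM at 1 h and 11.2 to 28.0 FPKM at 6 h (adjusted p 0.108). Nfil3, a basic leucine zipper repressor that also acts in the circadian clock, was called. It went from 92.8, 90.3 and 102 FPKM to 30.7, 21.9 and 20.4 FPKM, a log2 difference of -1.94 (SE 0.18, limma adjusted p 0.0137).

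Growth arrest genes made up a further group. Gadd45a and Gadd45g encode small proteins that bind cell cycle kinases and MAP kinase activators. Gadd45g was at 325, 324 and 288 FPKM at 1 h and at 99.9, 119 and 111 FPKM at 6 h, so the groups were far apart relative to their spread, while the controls ranged from 42.2 to 150 FPKM. Its log2 difference was -1.5 (SE 0.14, limma adjusted p 0.0148). Gadd45a was at 58.5, 34.0 and 50.6 FPKM at 1 h and at 11.9, 9.98 and 14.9 FPKM at 6 h, below all controls (21.5 to 24.5 FPKM), with a log2 difference of -1.86 and an adjusted p of 0.0465. They were the 2 calls among 20 p53 targets and GADD45 genes, of which 12 (60%, beside 5.03% of all genes tested) lay lower without overlap and none higher. Mdm2, the ubiquitin ligase of p53, was at 102, 139 and 115 FPKM at 1 h and at 64.0, 21.2 and 72.8 FPKM at 6 h (adjusted p 0.319). Cdkn1a (p21), the best-known p53 target, overlapped, at 220 to 246 FPKM and 143 to 223 FPKM. On this list replicate 2 was the lowest 6 h library in 13 genes and replicate 3 the highest in 13. Among the EGR, NR4A, ARC and IER genes replicate 2 was also the lowest in 10 of 13, but the highest was replicate 1. Replicate 2 was the lowest in 5293 of the 11199 genes tested.

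The remaining calls were signalling, receptor and nuclear genes of lower abundance. Dusp8, a phosphatase that inactivates JNK and p38, was at 5.64, 9.02 and 8.90 FPKM at 1 h and at 2.09, 1.75 and 1.90 FPKM at 6 h (log2 difference -1.58, limma adjusted p 0.0465). It was the one call among 14 MAP kinase phosphatases and feedback inhibitors, of which 3 (21.4%, beside 5.03% of all genes tested) lay lower without overlap. Tnfsf18 (GITR ligand), a TNF family cytokine, was at 10.8, 17.9 and 16.5 FPKM at 1 h and at 1.94, 0.35 and 0.84 FPKM at 6 h (log2 difference -3.02, adjusted p 0.0265). Ackr3, a scavenging receptor for CXCL12, went from 8.09, 8.31 and 5.97 FPKM to 1.77, 1.00 and 1.95 FPKM (log2 difference -1.72). Dact1, an antagonist of Wnt signalling, went from 13.4, 13.2 and 18.0 FPKM to 3.39, 3.96 and 2.86 FPKM (log2 difference -1.84).

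Arid5a, an RNA-binding protein known to stabilise Il6 mRNA, went from 9.78, 7.24 and 9.17 FPKM to 2.10, 0.86 and 0.85 FPKM, a log2 difference of -2.13. Il6 itself was at 128, 25.4 and 21.5 FPKM at 1 h and at 14.2, 1.45 and 6.21 FPKM at 6 h (adjusted p 0.301). The zinc-finger gene Zkscan5 fell from 10.1, 11.9 and 11.4 FPKM to 4.37, 3.06 and 3.48 FPKM, Swt1, which encodes an RNA endonuclease, from 9.72, 11.4 and 8.16 FPKM to 3.32, 3.0 and 3.18 FPKM, and Pxdc1 from 16.5, 17.8 and 17.1 FPKM to 5.21, 4.13 and 6.92 FPKM. All 3 had a limma adjusted p of 0.0427, and the 6 h values of Swt1 lay within the range of the controls, those of Pxdc1 below it, and those of Zkscan5 on both sides of it (1 above and 2 below 3.66 to 4.16 FPKM).

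The promoter of Dusp8 carried 2 copies of TGACGTCA, the full cAMP response element, in one window at chr7:142095310-142095421 (minus strand, both copies in capitals). The letters are palindromic, so both strands match together. They were found in 1 of the 20 promoters of the genes that fell (5%) and in 3.36% of all matched promoters.
Dusp8: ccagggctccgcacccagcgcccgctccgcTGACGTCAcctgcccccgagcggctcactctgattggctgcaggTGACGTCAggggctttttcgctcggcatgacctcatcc
The other motifs searched on both strands were TGANTCA (AP-1), in 5% of the 20 and 4.684% of all, TATAAA, in 20% and 6.798%, the CArG box of SRF, in 5% and 1.38%, and the kappa B site, in 20% and 10.51%.

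Set against the unheated level, 8 of the 22 genes had all 3 libraries at 6 h within the range of the controls, 3 (Hspa1a, Hspa1b and Bag3) had all above it and 3 (Herpud1, Pxdc1 and Gadd45a) all below. Of the other 8, 6 had some libraries within the range and 2 (Arid5a and Zkscan5) had none within it. Without control replicate 3 the numbers were 5 within, 3 above and 5 below, and Nfil3 and Ackr3 joined those below. The 22 genes had a median genomic span of 11189.5 bp, beside 21991 bp for all genes tested.

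Among regulators of inflammation and mRNA decay no gene passed the test. Of 13 mRNA decay regulators 5 (38.5%) lay lower without overlap and none higher, and of 12 NF-kappaB feedback genes 3 (25%) lay lower and 2 (16.7%) higher (before adjustment 5 and 3 had a p below 0.05, all lower). Over all genes tested the shares were 5.03% lower and 15.4% higher, so the upward NF-kappaB share was near that of all genes. Of 13 chemokine and cytokine genes none was called (before adjustment 6 had a p below 0.05, all lower), and 6 (46.2%) lay lower without overlap. Ccl2 was at 633, 218 and 176 FPKM at 1 h and at 41.4, 82.4 and 93.7 FPKM at 6 h, and Cxcl1 at 122, 27.4 and 26.1 FPKM and then 13.7, 1.24 and 3.52 FPKM. In both, 1 h replicate 1 was severalfold above the other 1 h libraries. Its summed macrophage markers (64.5 FPKM) were the lowest of the 1 h group, while its Cd14, 1 of these markers, was the highest (20.9 FPKM). The part of other cell types in these values was not tested. Noct, a phosphatase of NADP(H) that is expressed in a circadian rhythm, was at 86.7, 89.3 and 118 FPKM at 1 h and at 15.9, 3.19 and 12.7 FPKM at 6 h (log2 difference -3.31, adjusted p 0.0812). Zfp36 (tristetraprolin), which directs cytokine mRNAs to decay, was at 288 to 372 FPKM at 1 h and 75.1 to 176 FPKM at 6 h (adjusted p 0.149). Tnfaip6, a hyaluronan-binding protein of inflamed matrix, was at 156, 129 and 144 FPKM at 1 h and at 42.6, 14.6 and 15.5 FPKM at 6 h (log2 difference -2.68, adjusted p 0.0660).

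**Figure D3:**
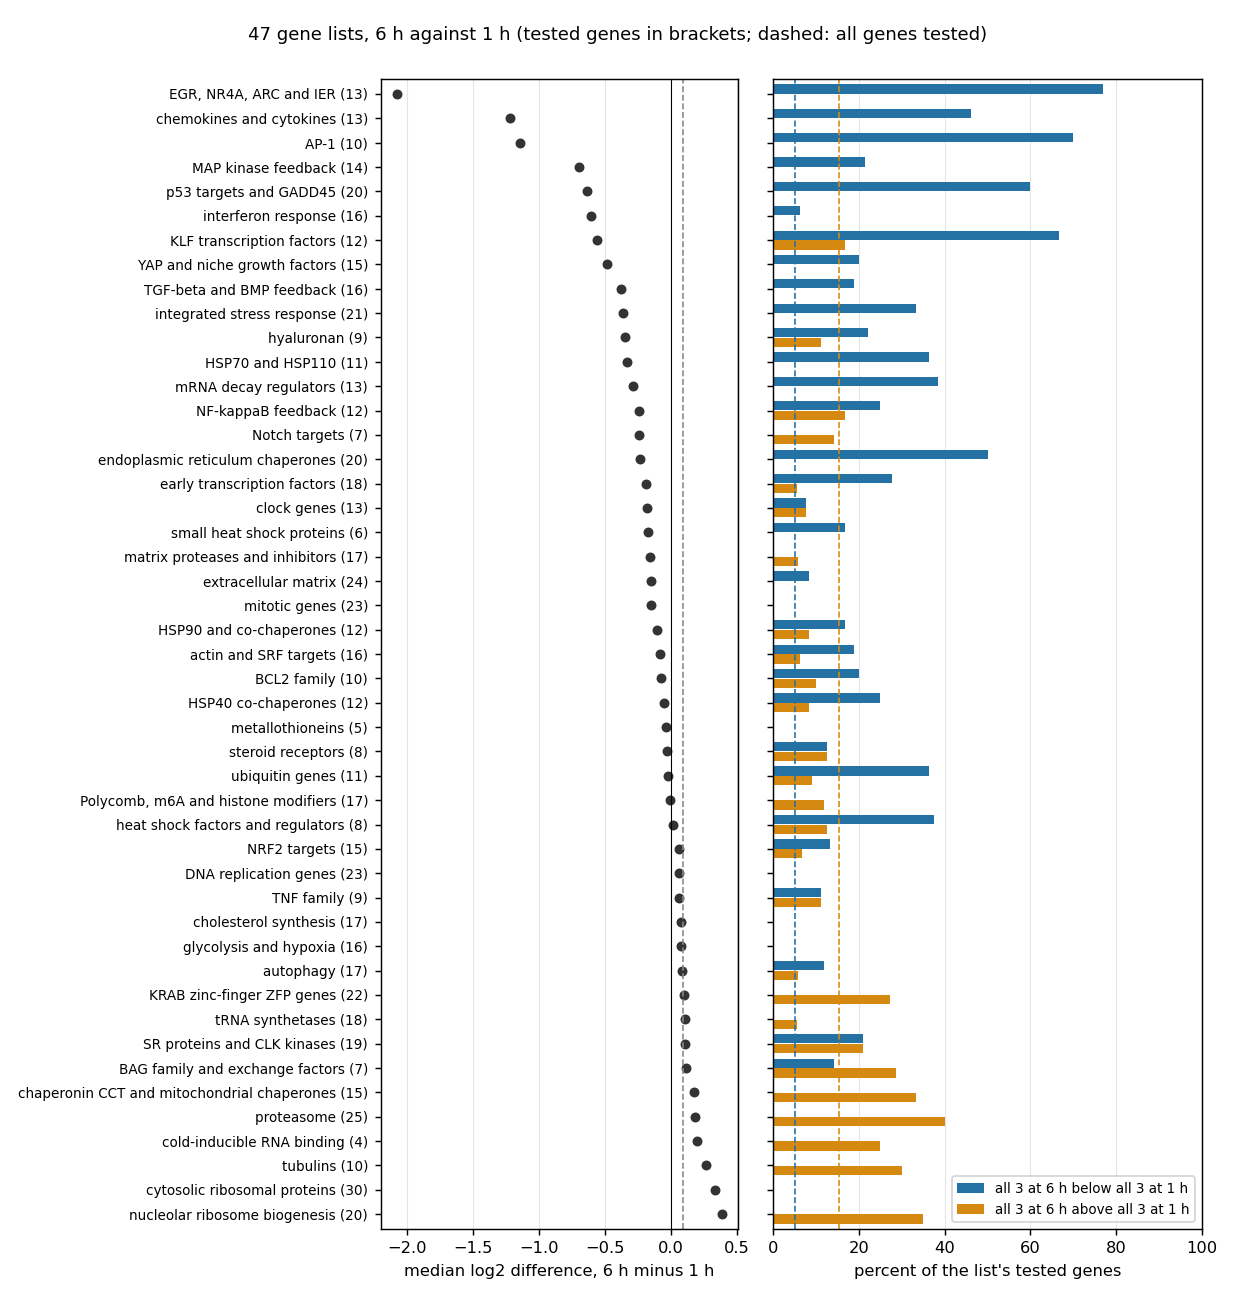
The 47 gene lists ordered by median log2 difference, 6 h minus 1 h (left panel, dots), with the percent of each list's tested genes whose 3 libraries at 6 h lay all below (blue bars) or all above (orange bars) the 3 at 1 h (right panel). Dashed lines give the same measures over all genes tested, 0.09 on the left and 5.03% and 15.4% on the right; the EGR, NR4A, ARC and IER list is at the top with a median of -2.08 and nucleolar ribosome biogenesis at the bottom with 0.39.

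No gene passed the test in the upward direction, although more genes lay higher than lower. In 1723 genes (15.4%) all 6 h libraries were above all 1 h libraries, and in 563 (5.03%) all were below. If the order of the 6 libraries were random, each direction would hold about as large a share as the 5.03% seen downward. The median log2 difference over all genes was 0.09, and 7027 genes (62.7%) had a positive difference. This balance depended on the scaling. After median-of-ratios scaling the median was -0.02, and genes without overlap came to 1007 in the upward direction (8.99%) and 1031 in the downward (9.21%), while quantile normalization gave 1424 and 837. Because FPKM is a share of the library, higher values of some genes go with lower values of the others.

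The 10 genes with the smallest p among those that lay higher without overlap at 5 FPKM or more are given as values only. Cnbd2, a cyclic nucleotide-binding domain protein, was at 39.5, 32.7 and 43.4 FPKM at 1 h and at 72.3, 88.5 and 72.9 FPKM at 6 h (log2 difference 1.00, adjusted p 0.106), but its controls ranged from 38.7 to 181 FPKM. Fkbpl, an immunophilin-like protein that works with HSP90, was at 3.93, 4.12 and 4.01 FPKM at 1 h and at 8.74, 7.60 and 7.98 FPKM at 6 h, beside 6.38 to 7.89 FPKM in the controls. Its log2 difference of 0.86 had an adjusted p of 0.113, and 0.0494 when the controls were added to the fit. H2afx, the histone variant H2AX that marks DNA breaks when phosphorylated, was at 19.8, 19.7 and 17.6 FPKM at 1 h and at 30.6, 34.6 and 33.8 FPKM at 6 h (log2 difference 0.76, adjusted p 0.123).

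Hyal2, a hyaluronidase, was at 4.73 to 5.88 FPKM at 1 h and 9.44 to 11.1 FPKM at 6 h (log2 difference 0.87), and Brms1, a component of a histone deacetylase complex, at 12.7 to 13.9 and 22.2 to 25.5 FPKM (0.79). Hps6, a subunit of a lysosome-related organelle complex, was at 1.94 to 3.17 and 5.49 to 7.29 FPKM (1.05), and L3mbtl2, a Polycomb protein, at 2.42 to 3.28 and 5.41 to 6.38 FPKM (0.87). D17H6S53E (0.98), Zbtb45 (0.89) and Erdr1 (0.67) complete the 10, with these log2 differences. Against the range of the controls, the 3 libraries at 6 h lay all within it in 4 of the 10 and all above it in 1 (Erdr1), and the other 5 were mixed. Without control replicate 3 the numbers were 3 within, 4 above and 1 below (H2afx).

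**Figure D4:**
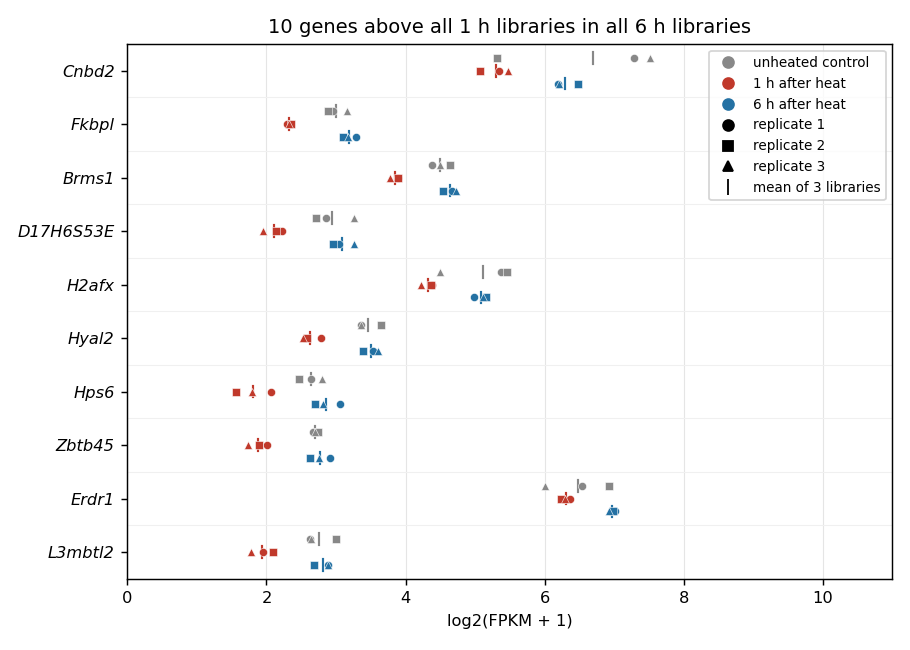
The 10 genes of smallest p that lay higher at 6 h than at 1 h in every library, as log2(FPKM + 1), with symbols for replicates, vertical bars for means, and grey, red and blue for control, 1 h and 6 h. The blue points lie to the right of the red ones in each row, by a log2 difference of 0.67 to 1.05, while their place against the grey ones differs by gene; none of the 10 passed the test.

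By list, nucleolar ribosome biogenesis stood at the upper end, with a median log2 difference of 0.39 over 20 genes (0.27 after scaling) and none called (before adjustment 7 had a p below 0.05, all higher). In 7 of the 20 (35%, beside 15.4% of all genes tested) all 6 h libraries were above all 1 h libraries, and in 5 after scaling (beside 8.99% of all). Fbl (fibrillarin), the methyltransferase of ribosomal RNA, was at 66.5, 75.7 and 65.2 FPKM at 1 h and at 101.02, 97.6 and 91.9 FPKM at 6 h (adjusted p 0.260). Nop2, another ribosomal RNA methyltransferase, was at 27.5, 29.5 and 23.6 FPKM at 1 h and at 55.5, 30.96 and 42.9 FPKM at 6 h, highest in replicate 1. The most abundant members, Npm1 and Nop58, overlapped between the groups. Npm1 was at 589 to 785 FPKM at 1 h and 734 to 823 FPKM at 6 h (log2 difference 0.23). Nop58 was lower in mean, at 93.6 to 111 FPKM at 1 h and 55.0 to 103 FPKM at 6 h (log2 difference -0.47). In 19 of the 20 genes replicate 1 was the highest of the 6 h libraries.

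Of 25 proteasome genes 10 lay higher without overlap (40%, beside 15.4% of all genes tested), and the median was 0.19. After scaling 3 of the 25 did (beside 8.99% of all) and the median was 0.06, so this count depended on the scaling. Psma7, an alpha subunit of the proteasome core, was at 115 to 130 FPKM at 1 h and 136 to 178 FPKM at 6 h (adjusted p 0.419). The most abundant members, Psmb1 and Psmb7, overlapped. They were at 154 to 167 and 183 to 207 FPKM at 1 h and at 149 to 243 and 203 to 261 FPKM at 6 h. KRAB zinc-finger genes had 6 of 22 higher without overlap (27.3%) and tubulins 3 of 10 (30%). After scaling these were 3 and 1, beside 8.99% of all genes tested, so these counts also depended on the scaling. Hsf1, the heat shock factor itself, was at 16.8, 16.7 and 16.7 FPKM at 1 h and at 20.6, 19.99 and 21 FPKM at 6 h, without overlap but with an adjusted p of 0.402, beside 18.9 to 20.4 FPKM in the controls. Cirbp and Rbm3, RNA-binding proteins known to be induced by cold, were at 9.12 to 10.2 and 192 to 226 FPKM at 1 h and at 10.5 to 20.1 and 183 to 295 FPKM at 6 h, with adjusted p of 0.426 and 0.745.

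Genes that lay apart between the groups without overlap also differed in length. Some of them would lie apart by chance alone, as given above. The 563 that lay lower had a median genomic span of 43086 bp and a median transcript of 4190 bp, and the 1723 that lay higher had medians of 12239 bp and 2179 bp, beside 21991 bp and 2855 bp for all genes tested. The difference was as large after median-of-ratios scaling, at 43873 bp for those lower and 11207 bp for those higher. The 22 called genes are among the 563 but did not share this length, with a median span of 11189.5 bp and a median transcript of 2702.5 bp. Among long genes of at least 5 FPKM at 1 h, Exoc4, a subunit of the exocyst, was at 17.3 to 21.5 FPKM at 1 h and 9.13 to 14.2 FPKM at 6 h, and Plxdc2, a transmembrane protein, at 15.0 to 19.6 and 10.9 to 12.1 FPKM, with limma adjusted p of 0.318 for each (both named after their values were seen).

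**Figure D5:**
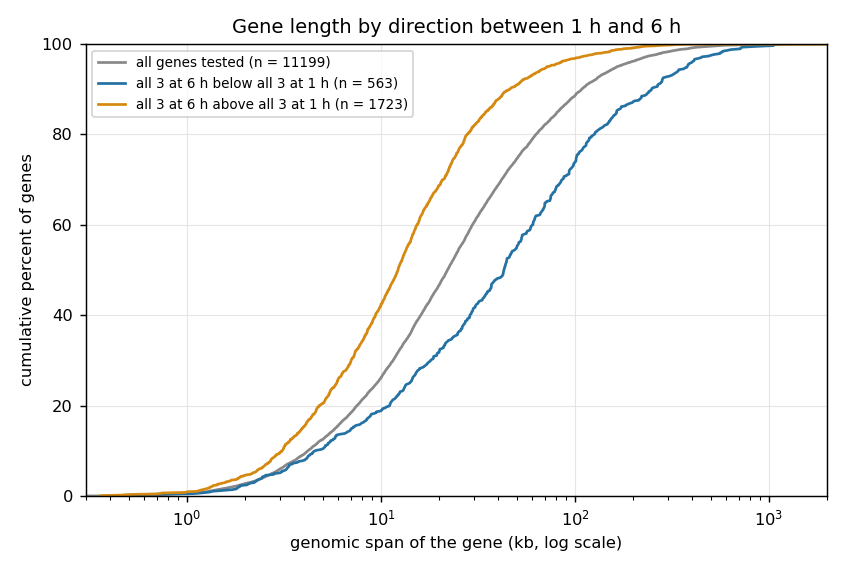
Cumulative percent of genes (y axis) by genomic span from first to last base (x axis, kb, log scale), for all 11199 genes tested (grey), the 563 that lay lower at 6 h than at 1 h without overlap (blue) and the 1723 that lay higher (orange). The blue curve lies to the right of the grey one and the orange curve to the left, with medians of 43086, 21991 and 12239 bp.

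The 3 libraries at 6 h differed from each other by whole groups of genes. All 23 mitotic genes tested were lowest in replicate 1, and 20 of them were highest in replicate 3. Cdk1, the kinase that starts mitosis, was at 9.57, 28.9 and 28.9 FPKM in replicates 1, 2 and 3, and at 13.1 to 25.1 FPKM at 1 h. All 16 interferon response genes were also lowest in replicate 1, and 15 were highest in replicate 2. Isg15, a ubiquitin-like protein, was at 15.5, 119 and 72.5 FPKM there, and the 1 h libraries ranged from 34.9 to 153 FPKM (SD 1.49 at 6 h and 1.07 at 1 h, in log2 units).

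All 30 cytosolic ribosomal protein genes were highest in replicate 2 and lowest in replicate 1. Rplp0 was at 1212, 2125 and 1441 FPKM in replicates 1, 2 and 3 and at 1174 to 1268 FPKM at 1 h. The median log2 difference of the 30 was 0.34, with none called (0 with an unadjusted p below 0.05) and none without overlap, so this median rests on replicates 2 and 3. Of the 24 extracellular matrix genes 18 were lowest in replicate 3. The same library had the lowest sum of fibroblast markers, 1223 FPKM beside 2263 and 3837 FPKM in replicates 1 and 2, and of macrophage markers, 50.8 FPKM beside 344 and 258 FPKM. The part of other cell types in these differences was not tested.

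A set of 24 genes stood more than 2 times (in FPKM + 1) above all of the other 7 libraries in 6 h replicates 2 and 3 together. For the other pairs of 6 h libraries the numbers were 1 and 0. Park2, the ubiquitin ligase parkin, was at 0.16 FPKM in replicate 1 and at 309 and 201 FPKM in replicates 2 and 3, beside 0.65 to 3.51 FPKM at 1 h. Pbld1 was at 0.46, 106 and 69.0 FPKM and Omd, a keratan sulfate proteoglycan of bone, at 0.57, 42.5 and 16.5 FPKM. The 24 lay on 14 chromosomes, and replicate 2 was the higher of the pair in 22 of them, with ratios of replicate 2 to replicate 3 between 0.915 and 2.58. Of the 34 genes called higher without 6 h replicate 1, 21 belonged to this set. The set was chosen on replicates 2 and 3, which are the 6 h libraries left in that fit, so this overlap follows largely from the choice. In replicate 2 alone, 61 genes were below all other libraries by the same factor.

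The authors' deposited table lists 324 genes lower and 398 higher at 6 h at a q-value no higher than 0.001 and a change of 2-fold or more. Of these, 204 and 157 passed the filter used here. In 147 of the 204 (72.1%) and 66 of the 157 (42.0%) the groups did not overlap, and 22 and 0 were among the calls made here. The choice by fold change between the same libraries raises these shares by itself.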

How the data were processed

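The deposited table holds 1 row per gene with FPKM per library, written to 2 decimals per the file headers. Per the submitters' processing notes, RSEM 1.2.12, HISAT2 2.0.4 and Bowtie2 2.2.5 were used with the mm10 build, with no role given. The authors' log2 fold changes, p-values and q-values in the same table come from DEGseq per the file headers and are used only where they are named. Kit, strandedness and read length were not given in the sources used here, so overlapping genes cannot be separated by strand.

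Depth was estimated from low values of transcripts of 400 to 1200 bp, of which 82.8% to 88.6% lay within 0.2 of a whole read (40% by chance). No count test was run. FPKM of the 6 heated libraries were tested as log2(FPKM + 1) with limma 3.58.1 in R 4.3.3, with a variance trend and no replicate block, which leaves 4 residual degrees of freedom. Calls were made at an adjusted p under 0.05. A difference on this scale understates the change of low genes, and folds in the text are ratios of mean FPKM. On simulated data with 11199 genes for this comparison, the test called 100% of genes changed by a log2 of -3, 86% at -2, 50% at -1 and 60% at 1, with 10 false calls. The simulation changed 50 genes per size, only among the more abundant, and gave both groups the same pooled spread per gene. The real 6 h libraries spread more widely than the 1 h libraries and fewer genes were called. These rates therefore do not measure how many real changes, in either direction, the test would miss.

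The members, the 47 lists and the named genes were chosen with earlier results of these data known. The rule for names took the 10 called genes of largest difference with at least 5 FPKM and no overlap in each direction, filled with the uncalled genes of smallest p, up to 4 called members per list (the 2 most abundant where none was called), the 3 highest markers per cell type, the 10 genes of largest spread at 6 h and 23 fixed genes, 1 of them not reported here. The other called genes and the list members given as values were named after their values were seen. Promoters and their coordinates are from RefSeq on GRCm38.p6, the build of the table, and gene coordinates are those of the table. The labels say nothing of shared animals for a replicate number, so the numbers were not taken as pairs. Deviations of same-numbered 1 h and 6 h libraries from their group means correlated at -0.27, -0.10 and -0.35. Between differently numbered libraries the correlations ran from -0.10 to 0.35, the highest being 1 h replicate 3 with 6 h replicate 1.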

Additional observations from a re-analysis of the deposited data

How the results depend on the processing

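The 15 alternatives changed the number of calls more than their direction. None of the 22 genes changed sign, and Hspa1a, Hspa1b, Dnajb1, Bag3 and Atf3 kept the call throughout, while the other 17 lost it under at least 1. A pseudocount of 0.1 FPKM gave 10 lower genes, no filter 9, all 9 libraries in the fit 34 lower and 1 higher (Fkbpl), and the replicate block 8 lower and 0 higher. Of the original 22, 10, 9, 20 and 6 were among these. Leaving out 1 library gave 6 to 66 lower and 0 to 34 higher genes. The median log2 difference over all genes was -0.0157 with median-of-ratios scaling and positive otherwise. The difference of Myh11 ranged from -0.83 to 0.31 with 1 library left out, positive without 1 h replicate 3 and, at 0.15, without 6 h replicate 2. Leaving out control replicate 3, an alternative chosen after seeing the data, changed how many genes lay within or outside the control range, as given above. There are 3 libraries per group and FPKM in place of counts, and the cause of the spread at 6 h was not tested.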

Other observations

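Further groups outside the calls are given as values. Zfand2a (AIRAP), a heat- and arsenite-induced partner of the proteasome, was at 40.1, 56.8 and 36.8 FPKM at 1 h and at 21.1, 10.8 and 17.4 FPKM at 6 h (limma adjusted p 0.147). Hmox1, the inducible haem oxygenase, was at 400 to 576 FPKM at 1 h and 115 to 255 FPKM at 6 h (adjusted p 0.260), while the median log2 difference of the 15 NRF2 targets was 0.06.

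Clk1 and Clk4, kinases that phosphorylate SR splicing factors, were at 25.7 to 33.2 and 13.8 to 19.6 FPKM at 1 h and at 13.2 to 20.8 and 6.41 to 9.20 FPKM at 6 h (limma adjusted p 0.239 and 0.158). On the same list Srsf2, Srsf3, Srsf7 and Clk3 lay higher without overlap, so the list of 19 held 4 in each direction (21.1%, beside 5.03% lower and 15.4% higher of all genes tested). After median-of-ratios scaling 6 lay lower and 2 higher, beside 9.21% and 8.99% of all genes tested, so this balance depended on the scaling. Cyr61 and Ctgf, matricellular genes that YAP and SRF induce, were at 1252 to 1620 and 888 to 1278 FPKM at 1 h and at 500.1 to 1007 and 643 to 777 FPKM at 6 h (adjusted p 0.253 and 0.331). The 10 genes with the largest spread at 6 h included Mgp, an inhibitor of calcification, at 942, 681 and 23.4 FPKM in replicates 1, 2 and 3, and Serpinb2, an inhibitor of plasminogen activators, at 224, 6.87 and 27.4 FPKM.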
